A study of Bos taurus with 7 samples.

Results

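Genes of the Notch pathway were followed in the rumen epithelium, the stratified squamous lining of the forestomach, of 7 Holstein calves. The list named 10 genes: the receptors NOTCH1, NOTCH2 and NOTCH3, the ligands JAG1, JAG2, DLL1 and DLL4, the DNA-binding effector RBPJ and the target genes HES1 and HEY1. They were found by their gene name in the scanner files, where 8 of the 10 had a probe, out of 14964 gene names on the array. NOTCH3 and DLL1 are not analysed here. All 8 passed the filter on dim probes and were tested, each by 1 probe printed as 1 spot. Total RNA was measured on 7 single-colour Agilent arrays, 1 per calf. Calves 9, 10 and 13 had been given forage (HAY, n = 3) and calves 8, 11, 12 and 14 had not (CON, n = 4). The division is placed at 3 weeks after weaning in the design text, and calf starter is named in the title of the series. Strain beyond Holstein, age and sex are not given in the sources used here.

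Notch is a receptor that signals between touching cells. A ligand of the Jagged or Delta-like family on one cell binds the receptor on its neighbour, a metalloprotease and then the gamma-secretase complex cut the receptor, and the freed intracellular part enters the nucleus. There it joins RBPJ and a Mastermind-like protein and switches on repressors of the HES and HEY families. In the stratified epithelium of mouse skin the pathway helps cells leave the basal layer and differentiate, and in blood vessels DLL4, NOTCH4 and HEY1 belong to the program of endothelial cells.

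Each gene was read through a single stretch of 60 bases, and the probes of both receptors and of JAG1 gave low signals that rest on how these bases hybridised. Their sequences are shown for that reason, with that of RBPJ, whose difference had the narrowest interval of the 8. They are printed 5′ to 3′ in lower case with no base marked, with positions on UMD_3.1 as the files give them.
NOTCH1: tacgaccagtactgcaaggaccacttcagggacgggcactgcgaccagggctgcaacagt
NOTCH2: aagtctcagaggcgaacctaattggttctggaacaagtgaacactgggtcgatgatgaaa
JAG1: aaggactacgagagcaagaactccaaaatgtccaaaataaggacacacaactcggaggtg
RBPJ: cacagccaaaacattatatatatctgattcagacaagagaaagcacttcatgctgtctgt
The NOTCH1 probe lies at chr11:103994055-103994114 on the minus strand and has a GC content of 60%. The NOTCH2 probe is listed at chr3:23471809-23471867 on the plus strand, a span of 59 bases for a probe of 60, with a GC content of 45%. The JAG1 probe lies at chr13:3834204-3834263 on the minus strand with a GC content of 45%, and the RBPJ probe at chr6:47415929-47415988 on the plus strand with 36.7%. The other probes lie at chr21:71144463-71144522 (JAG2, minus strand), chr10:36586278-36586337 (DLL4, plus strand), chr1:73974263-73974322 (HES1, minus strand) and chr14:45126247-45126306 (HEY1, minus strand). Exon and UTR annotation of this build was not used here.

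No gene of the 8 passed the threshold between feeding groups, and in each of them the values of the groups overlapped. The processed signals were divided by the 75th percentile of their array on the log2 scale, so that a log2 signal of 0 equals that percentile, and HAY was compared with CON by limma over 12570 genes with Benjamini-Hochberg adjustment at 0.05. At an unadjusted p under 0.05 stood 0 of the 8 Notch genes, against 14% of all genes (1755 of 12570, 854 higher and 901 lower in HAY, or 1240 and 774 with median centring). Groups without overlap were found in 0 of the 8, against 11.8% of all genes. After adjustment 1 gene of 12570 passed, 0.00796% of them, and it is none of these. Of the 8, 5 had a lower and 3 a higher mean in HAY (median difference -0.23 on the log2 scale), while 45.5% of all genes had a lower mean in HAY and the median over all genes was 0.03. Differences are HAY minus CON throughout, and intervals are 95% intervals from limma.

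**Figure D1:**
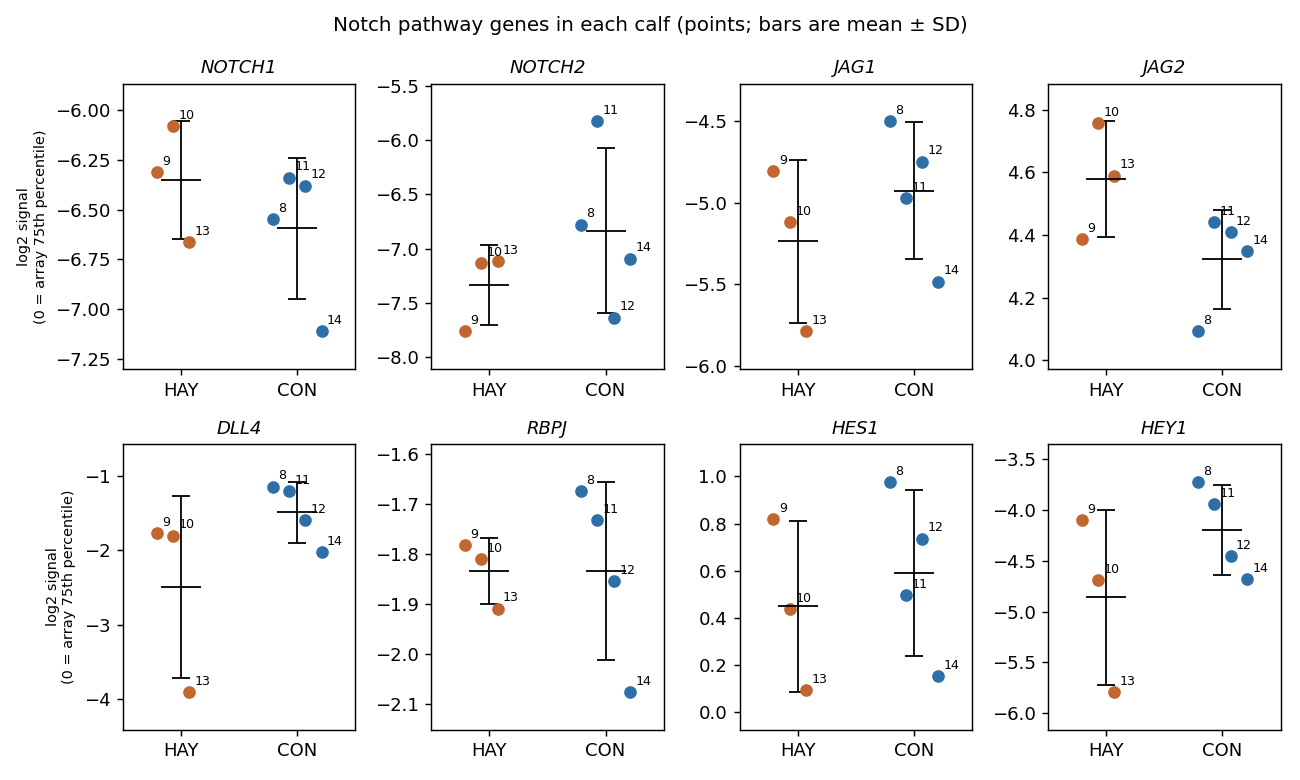
Log2 signal of the 8 Notch genes (vertical axis, 0 is the 75th percentile of the array) in each calf, HAY left and CON right, with calf numbers beside the points and bars at the mean ± SD. In every panel the points of the groups overlap, and in the DLL4 panel HAY calf 13 stands apart at -3.90.

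NOTCH1, the receptor best known from squamous epithelia, had a low signal in every calf. Its log2 signal was -6.31, -6.08 and -6.66 in HAY calves 9, 10 and 13, against -6.55, -6.34, -6.38 and -7.11 in CON calves 8, 11, 12 and 14. CON calf 14 was the lowest of all and HAY calf 10 the highest, and the other 5 calves lay between them with the groups mixed. On the linear scale the signals were 21.6 to 27.9 intensity units in HAY and 14.2 to 23.1 in CON, each well above background. The mean was -6.35 ± 0.30 in HAY (SD, n = 3) and -6.59 ± 0.36 in CON (SD, n = 4). HAY minus CON was 0.24 on the log2 scale (SE 0.24, interval -0.31 to 0.79, limma adjusted p = 0.686), and it was 0.07 with normexp background correction.

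NOTCH2, a second receptor of the family, could not be followed at this signal. Its probe was not well above background on the arrays of HAY calf 9 and CON calf 12, and gave 8.68, 13.4 and 15.8 intensity units in HAY calves 9, 10 and 13. In CON calves 8, 11, 12 and 14 it gave 16.9, 32.9, 7.67 and 14.4. On the log2 scale the values were -7.76, -7.13 and -7.12 in HAY, against -6.78, -5.83, -7.64 and -7.09 in CON, in the same order of calves. CON calf 11 was the highest, and the groups overlapped. Its log2 difference was -0.50 (SE 0.41, interval -1.46 to 0.45, limma adjusted p = 0.618), -0.17 without CON calf 11 and -0.09 with normexp.

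Of the genes whose log2 signal, centred on the mean of the 7 calves, lay closest to that of a receptor, PNISR and SCGB1C1 came nearest to NOTCH1, with a root mean square difference of 0.056 and 0.074 over 7 arrays. The same measure named SLC6A20 (0.22) and OIT3 (0.23) for NOTCH2, whose own SD over the 7 calves was 0.64. For RBPJ, with an SD of 0.13, it named RTF1 (0.027) and CHERP (0.039). Genes with only a locus or clone name were left out of this search, so nearer profiles may exist. With so many genes and only 7 arrays some profiles come this close without any link, and nothing about function follows from them.

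JAG2, a Jagged ligand of the cell membrane, gave strong signals in every calf. Its log2 signal was 4.39, 4.76 and 4.59 in HAY calves 9, 10 and 13, against 4.09, 4.44, 4.41 and 4.35 in CON calves 8, 11, 12 and 14. HAY calves 10 and 13 were above all CON calves, while HAY calf 9 lay among them. The linear signals were 39381 to 52708 intensity units in HAY and 31571 to 40566 in CON, and none was saturated. The mean was 4.58 ± 0.19 in HAY (SD, n = 3) and 4.32 ± 0.16 in CON (SD, n = 4), a 1.19-fold higher mean in HAY. The log2 difference of 0.25 (SE 0.15, interval -0.10 to 0.61) had a limma adjusted p of 0.490. It kept its sign in all 18 alternatives, from 0.01 with a stromal score as covariate to 0.35 without HAY calf 9.

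JAG1, the other Jagged ligand, had a log2 signal of -4.81, -5.12 and -5.79 in HAY calves 9, 10 and 13, against -4.50, -4.97, -4.75 and -5.48 in CON calves 8, 11, 12 and 14. HAY calf 13 and CON calf 14 were the lowest, CON calf 8 the highest. HAY minus CON was -0.31 on the log2 scale (SE 0.30, interval -1.02 to 0.40, limma adjusted p = 0.688) and -0.04 without HAY calf 13.

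DLL4, the Delta-like ligand of sprouting endothelial cells, had the largest difference of the 8 in size. Its log2 signal was -1.77, -1.81 and -3.90 in HAY calves 9, 10 and 13, against -1.15, -1.21, -1.59 and -2.02 in CON calves 8, 11, 12 and 14. HAY calf 13 stood apart at 146 intensity units, where the other 6 calves had 482 to 835, and HAY calves 9 and 10 lay between CON calves 12 and 14. The mean was -2.49 ± 1.22 in HAY (SD, n = 3) and -1.49 ± 0.41 in CON (SD, n = 4), a mean 2.001-fold lower in HAY. The log2 difference of -1.001 (SE 0.53, interval -2.24 to 0.24) had an unadjusted p of 0.0982 by limma and an adjusted p of 0.439. Leaving out HAY calf 13 gave -0.30, and leaving out HAY calf 9 gave -1.36 (limma unadjusted p = 0.0517). Within the slide columns that held both groups, HAY minus CON was -0.57 for calves 9 and 11, -0.21 for calves 10 and 12 and -1.88 for calves 13 and 14.

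RBPJ, the factor through which all Notch receptors act on DNA, had the most even signal of the 8. Its log2 signal was -1.78, -1.81 and -1.91 in HAY calves 9, 10 and 13, against -1.67, -1.73, -1.85 and -2.08 in CON calves 8, 11, 12 and 14. The 3 HAY values lay inside the range of the CON values. The means were -1.83 in both groups, with an SD of 0.067 in HAY (n = 3) and 0.18 in CON (n = 4), and the interval of the log2 difference was -0.33 to 0.33 (SE 0.14, limma adjusted p = 0.99998).

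HES1, a repressor that Notch switches on directly and that in mouse skin keeps spinous cells from maturing early, had a log2 signal of 0.82, 0.44 and 0.09 in HAY calves 9, 10 and 13. In CON calves 8, 11, 12 and 14 it had 0.98, 0.50, 0.74 and 0.15. The lowest calf of each group, HAY calf 13 and CON calf 14, were close to each other, as were the highest of each group, HAY calf 9 and CON calf 8. Its log2 difference was -0.14 (SE 0.25, interval -0.72 to 0.44, limma adjusted p = 0.841), and it turned to 0.04 without HAY calf 13.

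HEY1, a related repressor and in mice a Notch target of the vessel wall, had a log2 signal of -4.10, -4.69 and -5.79 in HAY calves 9, 10 and 13. In CON calves 8, 11, 12 and 14 it had -3.72, -3.94, -4.45 and -4.68. HAY calf 9 lay inside the CON range, HAY calf 10 just below it and HAY calf 13 far below it, at 39.6 intensity units against 69.6 to 140 in CON. The mean was -4.86 ± 0.86 in HAY (SD, n = 3) and -4.20 ± 0.44 in CON (SD, n = 4), a mean 1.58-fold lower in HAY. The log2 difference of -0.66 (SE 0.41, interval -1.63 to 0.31) had a limma adjusted p of 0.505. Without HAY calf 13 it was -0.20, and without HAY calf 9 it was -1.04 with an unadjusted p of 0.0356 (adjusted p = 0.231). Within slide columns it was -0.16, -0.24 and -1.11, in the order of the columns given for DLL4.

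**Figure D2:**
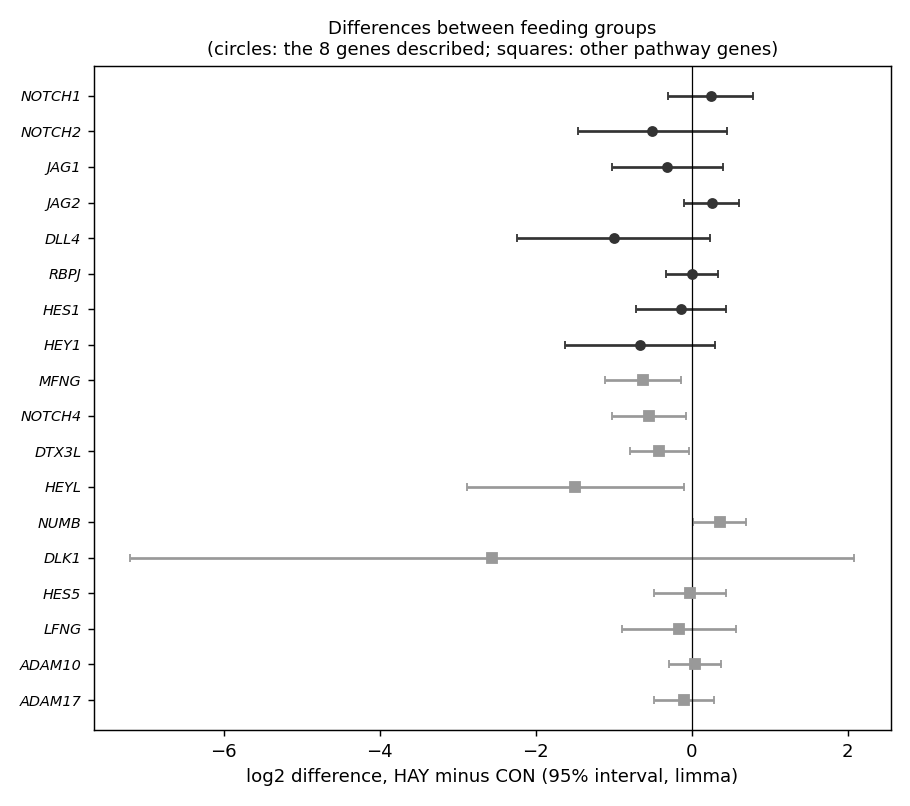
Log2 difference, HAY minus CON, with its 95% interval from limma (horizontal axis) for the 8 Notch genes (circles) and 10 further pathway genes (squares). The intervals of all 8 circles include 0, and the widest of them is that of DLL4, from -2.24 to 0.24.

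The same calves were often at the ends of the range. DLL4, JAG1, HES1 and HEY1 had their lowest value in HAY calf 13 and their highest in CON calf 8, which held for none of the other 4. HAY calf 13 was thus the lowest calf in 4 of the 8, against 21.4% of 12561 genes measured on all arrays. CON calf 8 was the highest in 5 of the 8, RBPJ included, against 17.3% of those genes. JAG2 had its lowest value in CON calf 8, and NOTCH1 and RBPJ had theirs in CON calf 14.

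Marker lists of vessel, muscle, connective tissue and other cells were read too. Their relation to the values of the Notch genes was not tested. For a score, the log2 signal of each gene was set to a mean of 0 over the calves and then averaged over the tested genes of the list. The endothelial score was 0.22, -0.29 and -1.10 in HAY calves 9, 10 and 13, against 0.59, 0.25, 0.36 and -0.03 in CON calves 8, 11, 12 and 14. HAY calf 13 was again the lowest and CON calf 8 the highest, as for DLL4, JAG1, HES1 and HEY1. Of 13 tested endothelial genes, CLDN5, VWF and EMCN among them, 11 had a lower mean in HAY (median difference -0.76). The smooth muscle and mural score ran from -0.91 to -0.06 in HAY and from 0.01 to 1.18 in CON, over 11 genes of which 9 had a lower mean in HAY, and the fibroblast and matrix score ran from -1.57 to 0.24 in HAY and from -0.20 to 1.49 in CON, over 14 genes that all had a lower mean in HAY. The myeloid score ran from -0.66 to -0.25 in HAY and from 0.21 to 0.59 in CON, over 9 tested genes. The lymphoid score ran from -0.11 to -0.05 in HAY and from -0.30 to 0.25 in CON, and the nerve and glia score from 0.16 to 0.29 in HAY and from -0.20 to -0.11 in CON. The groups did not overlap in the smooth muscle, myeloid and nerve scores. The defining markers ITGAM (myeloid), CD4 (lymphoid) and SOX10 (nerve and glia) were not well above background on any array. Fewer cells of a type and less RNA per cell cannot be told apart in such samples.

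A stromal score was taken as the average of the scores for smooth muscle and fibroblasts. This score ran from -1.24 to 0.09 in HAY and from -0.05 to 1.34 in CON, so it is hard to separate from feeding. With the score as a covariate, the log2 difference was 0.07 for DLL4 (interval -1.39 to 1.53) and 0.39 for HEY1 (-0.41 to 1.19). It was 0.41 for JAG1 (-0.24 to 1.07) and 0.45 for HES1 (-0.06 to 0.97), and these intervals all include 0. In this fit 1 of the 8 genes had a negative difference, NOTCH2 at -0.57. NOTCH1 had 0.49, RBPJ 0.20 and JAG2 0.01. HAY calf 13 and CON calf 8 had the lowest and the highest stromal score. Without them the differences were -0.18 for DLL4, -0.04 for HEY1, 0.11 for JAG1 and 0.17 for HES1, and 3 of the 8 were negative. These calves also held the lowest and the highest value of DLL4, HEY1, JAG1 and HES1, so leaving them out had to raise the differences. The part of these cell types in the differences was not tested. All 7 arrays shared 1 slide and 1 scan day. Because row 1 of the slide held every HAY array and row 2 every CON array, effects of row and of feeding cannot be told apart.

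Keratinocyte markers are the defining genes of the labelled tissue, and all 10 on the basal list were well above background on all 7 arrays. KRT15, KRT5 and KRT14, keratins of the basal layer, had mean log2 signals of 6.54, 5.75 and 6.03 in HAY and 6.78, 5.85 and 5.45 in CON. KRT6A, the cornified envelope protein gene IVL and the transglutaminase gene TGM3 had 7.96, 6.78 and 5.91 in HAY and 7.71, 6.31 and 6.08 in CON, also well above background on all arrays. KRT4 is a keratin of the upper layers of internal squamous epithelia. It stood well above background on 0 of 3 HAY arrays and on 4 of 4 CON arrays. It thus passed the filter on dim probes through CON alone, and its comparison (limma adjusted p = 0.163) is tied to that filter. Its HAY values, not well above background, all lay below its CON values, as in 5.3% of all genes. DSC1 and LORICRIN were well above background on 3 and 4 of the 7 arrays, and these 3 genes were named after their values were seen. The basal score ran from -0.41 to 0.17 in HAY and from -0.08 to 0.08 in CON, and the suprabasal score from -0.38 to 0.26 in HAY and from -0.44 to 0.34 in CON. HAY calf 13 had the lowest basal score as well.

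**Figure D3:**
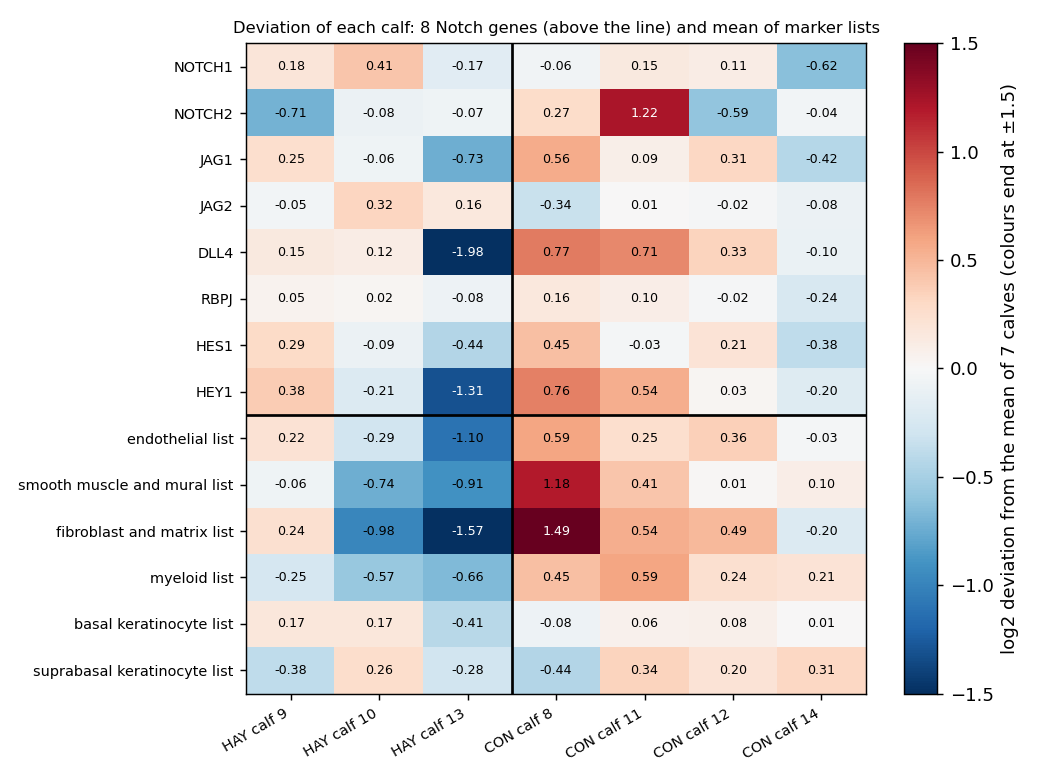
Log2 deviation of each calf (columns, HAY left of CON) from the mean of the 7 calves for the 8 Notch genes and, below the line, for the mean of 6 marker lists, with the value in each cell. DLL4, JAG1, HES1 and HEY1 share their lowest value in HAY calf 13 and their highest in CON calf 8 with the endothelial, smooth muscle and fibroblast lists.

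The rest of the pathway was read through 71 further genes, from ligand processing to co-repressors, of which 60 were on the array and 55 were tested. No gene of the 55 passed the adjustment with limma. At an unadjusted p under 0.05 stood 5 of them, 4 lower and 1 higher in HAY, beside 7.17% and 6.79% of all genes in these directions. The groups did not overlap in 4 of the 55, a smaller share than the 11.8% of all genes. At that p the count of lower genes lay near its background, and that of higher genes below it. The median log2 difference was -0.08, with 32 lower and 23 higher means in HAY, beside 45.5% of all genes with a lower mean.

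Among the receptors and ligands, NOTCH4, the receptor of endothelial cells, had a log2 signal of -1.44, -1.04 and -1.64 in HAY calves 9, 10 and 13, against -0.52, -0.71, -0.98 and -1.08 in CON calves 8, 11, 12 and 14. HAY calf 10 lay above CON calf 14 and the other HAY calves below all CON calves. Its log2 difference was -0.55 (SE 0.21, limma unadjusted p = 0.0297, adjusted p = 0.314). It was -0.42 without HAY calf 13, -0.72 without HAY calf 10 and -0.28 with the stromal score as covariate. All 7 tested genes of the further receptors and ligands had a lower mean in HAY, with a median of -0.87, and they include the matrix genes MFAP2 and MFAP5, named here after their values were seen. MFAP2 had a difference of -0.96 (limma adjusted p = 0.361), or 0.16 with the stromal score. MFAP5 had a log2 signal of -4.40, -5.69 and -7.76 in HAY calves 9, 10 and 13, where 2 of the 3 were well above background, against 1.32, -4.16, -5.72 and -5.14 in CON calves 8, 11, 12 and 14. CON calf 8 stood far above the others, among which the groups overlapped. The MFAP5 difference was -2.53 (limma adjusted p = 0.533), -0.94 without CON calf 8 and 1.96 with the stromal score.

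DLK1, a Delta-like protein known from stromal and fat precursor cells and not a classical activator of Notch, was high in a single calf. In HAY calves 9, 10 and 13 its probe gave 11.9, 14.4 and 16.4 intensity units, against 5610, 21.5, 16.8 and 15.6 in CON calves 8, 11, 12 and 14. CON calf 8 thus lay far above all others, and in HAY calf 9 the probe was not well above background. HAY minus CON was -2.56 on the log2 scale (SE 1.99, limma adjusted p = 0.602), and -0.50 (adjusted p = 0.510) without CON calf 8.

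Of the enzymes that modify and cut the receptor, MFNG, a Fringe enzyme that lengthens sugars on Notch, had a log2 signal of -0.62, -0.90 and -1.34 in HAY calves 9, 10 and 13. In CON calves 8, 11, 12 and 14 it had -0.45, -0.24, -0.08 and -0.55. All HAY values lay below all CON values, as in 5.3% of all genes. The log2 difference of -0.63 (SE 0.21) had a limma unadjusted p of 0.0179 and an adjusted p of 0.284. It was -0.43 without HAY calf 13 (limma unadjusted p = 0.0652), -0.79 without HAY calf 9 and -0.38 with the stromal score as covariate. The related LFNG had a difference of -0.16 (SE 0.31). Of the proteases that release the intracellular part, ADAM10 had a difference of 0.05 (SE 0.14) and ADAM17 of -0.10 (SE 0.16), with limma adjusted p of 0.917 and 0.832.

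NUMB, an adaptor that removes the receptor from the membrane and so limits Notch, had a log2 signal of -2.74, -3.11 and -3.15 in HAY calves 9, 10 and 13, against -3.35, -3.33, -3.33 and -3.43 in CON calves 8, 11, 12 and 14. All HAY values were above all CON values, as in 6.55% of all genes. The log2 difference of 0.36 (SE 0.14) had a limma unadjusted p of 0.0394 and an adjusted p of 0.337, and it was 0.23 without HAY calf 9 and 0.56 with the stromal score as covariate. DTX3L, a ubiquitin ligase of the Deltex family, had -5.00, -4.56 and -4.86 in HAY calves 9, 10 and 13, against -4.51, -4.45, -4.16 and -4.45 in CON calves 8, 11, 12 and 14. Its HAY values lay below all CON values, with HAY calf 10 next to CON calf 8. Its log2 difference was -0.41 (SE 0.16, limma unadjusted p = 0.0360, adjusted p = 0.328), -0.16 with normexp and -0.58 with the stromal score as covariate.

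Among the other targets, HEYL, in mice a target of NOTCH3 in mural cells, had a log2 signal of -1.87, -3.25 and -4.75 in HAY calves 9, 10 and 13, against -1.33, -1.87, -2.01 and -1.98 in CON calves 8, 11, 12 and 14. HAY calf 9 lay among the CON calves, and HAY calves 10 and 13 below them all. The log2 difference of -1.49 (SE 0.60) had a limma unadjusted p of 0.0389 and an adjusted p of 0.336. It was -0.76 without HAY calf 13, -2.20 without HAY calf 9 (limma unadjusted p = 0.00161, adjusted p = 0.115) and -0.06 with the stromal score as covariate. HES5, another HES repressor, had means of -2.81 ± 0.28 in HAY (SD, n = 3) and -2.79 ± 0.25 in CON (SD, n = 4), with an interval of the difference of -0.48 to 0.44.

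**Figure D4:**
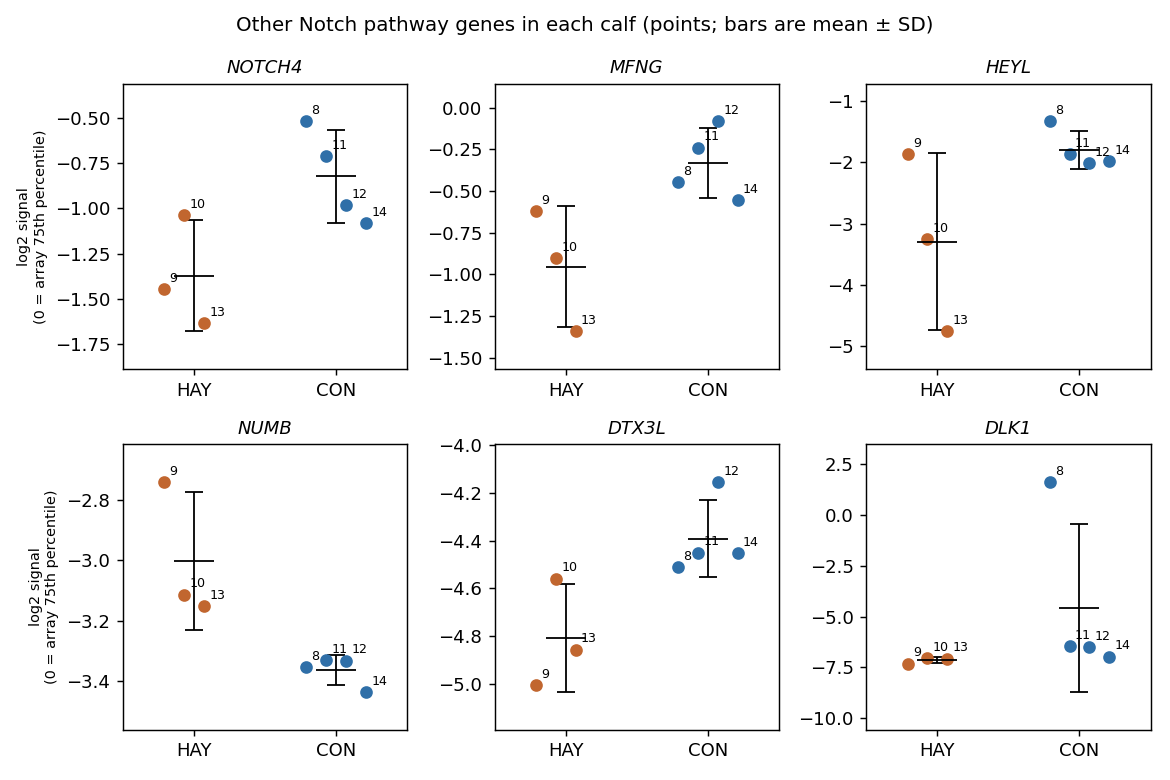
Log2 signal (vertical axis, 0 is the 75th percentile of the array) of 6 further pathway genes in each calf, HAY left and CON right, with calf numbers and bars at the mean ± SD. The groups do not overlap for MFNG, NUMB, DTX3L and DLK1, as in 11.8% of all genes. For DLK1 this rests on a narrow gap at low signal, between HAY calf 10 at -7.03 and CON calf 14 at -6.97. CON calf 8 lies at 1.60 for DLK1, with all other calves below -6.

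**Figure D5:**
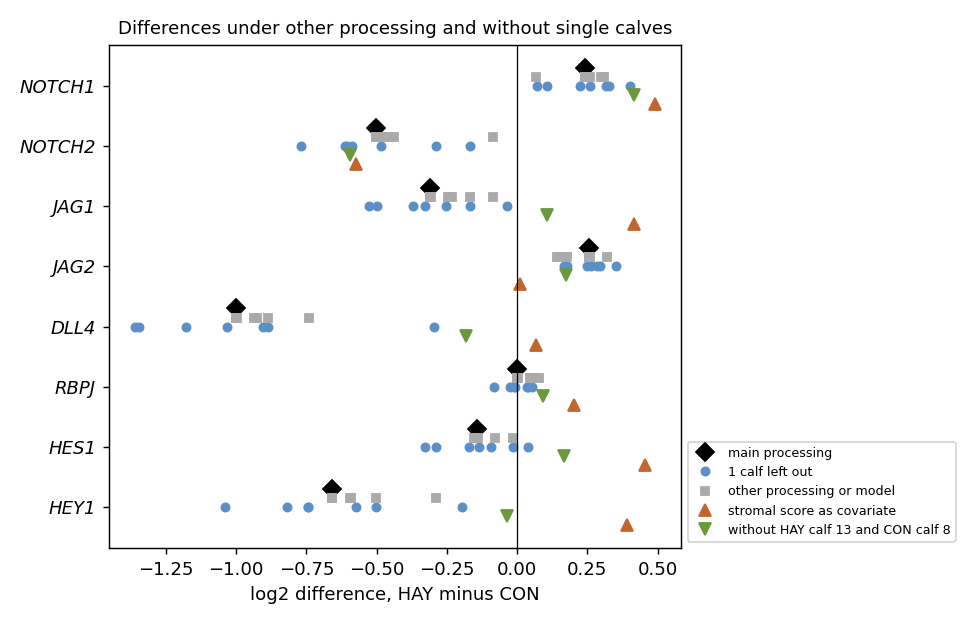
Log2 difference, HAY minus CON (horizontal axis), of the 8 Notch genes with the main processing (diamonds), other processing or models (squares), 1 calf left out (circles), without HAY calf 13 and CON calf 8 (green triangles) and with the stromal score as covariate (orange triangles). NOTCH1 and JAG2 stay above 0 and NOTCH2 below 0 in every setting drawn, while DLL4 spans -1.36 to 0.07.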

How the data were processed

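Cy3-labelled RNA of 7 calves was read on 7 arrays. Per the file headers, the deposited scanner files hold spot intensity processed with spatial and multiplicative detrending on each array. The submitters' processing notes name Agilent Feature Extraction 9.5. The authors' table of the whole series, as deposited, has log2 values. Up to a constant per array, they equalled the log2 processed signal minus the 75th percentile of the array (SD of the difference at most 0.000352). The column medians of the table ran from -3.20 to -3.12 in HAY and from -3.11 to -3.08 in CON. Its scale and lack of gene centring were thus settled from the data. Control and outlier spots were left out and the spots of a probe averaged. Between 81.5 and 84.6% of spots per array were well above background, and the number of arrays limits the precision. Probes well above background on at least 3 arrays were kept (12604), with the brightest probe per gene. The probe's RefSeq accession, matched to assembly ARS-UCD2.0, named 11194 probes, and the others kept the name in the files. Groups were compared with limma 3.58.1 in R 4.3.3, tested on simulated data. Calf numbers differ throughout, so no calves are paired, and each calf is 1 replicate.

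The members and lists were chosen with earlier results of these data known. The genes named are the listed members, the further pathway genes at an unadjusted p under 0.05 or without overlap, 10 fixed pathway genes (of which NRARP and MAML1 are not analysed here and 1 is not reported here), the 3 brightest markers of a list and the nearest profiles to the receptors and RBPJ. Alternatives were normexp (offset 50), median centring, quantile normalization, no filter, a filter on all arrays, the deposited table, averaged probes, a variance trend, the slide column, a stromal covariate and calves left out.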

Additional observations from a re-analysis of the deposited data

Results flagged for a closer look

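DLK1 in CON calf 8 lay far from the other CON calves: the gap to the nearest of them was 0.938 of the range of the group, above the critical value of 0.829 for 4 samples. This was 1 of 18 genes examined in this way, and chance flags about 1 group in 20. The log2 signal was 1.60 in that calf, against -6.44, -6.50 and -6.97 in CON calves 11, 12 and 14. The spot was not marked as an outlier or as saturated. The same calf had the highest fibroblast and matrix score of the 7, at 1.49. The relation of these values was not tested.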

How the results depend on the processing

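No paired analysis was possible because the calf numbers of the groups are all different. No gene of the 8 passed the adjustment in any of the 18 alternatives. Of the 322 values of the 18 genes named, 296 kept their direction and 26 turned, and none passed the threshold. Several alternatives share most of their processing with the main one, so these values are not independent. The count of all genes past the adjustment was 2 with normexp, 4 with quantile normalization, 2 with the slide column as a block, 5 without HAY calf 13 and CON calf 8, and 1 to 21 when 1 calf was left out (21 without CON calf 14, 7 without HAY calf 9). The count at an unadjusted p under 0.05 was 939 with the stromal score and 749 without calves 13 and 8, and 984 to 2344 when 1 calf was left out. Of the 8 Notch genes 0 to 1 stood at that p when 1 calf was left out. With the stromal score 1 of them was lower in HAY and their median difference was 0.30, and without calves 13 and 8 there were 3 and the median was 0.10. When 1 calf was left out 4 to 6 were lower and the median ran from -0.39 to 0.00044. The wider list of 55 had 7 genes at that p with the stromal score, where all 12570 genes had 939. It had 1 without calves 13 and 8, and 1 to 6 when 1 calf was left out.

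Directions turned with the stromal score for JAG1 (0.41), DLL4 (0.066), HES1 (0.45), HEY1 (0.39), DLK1 (1.43), HES5 (0.31) and LFNG (0.32). Without calves 13 and 8 they turned for JAG1 (0.11), HES1 (0.17), HES5 (0.20) and LFNG (0.25). These calves held the lowest and the highest value of JAG1 and HES1, so the differences of these genes had to rise. HES5 also turned with normexp (0.047), median centring (0.042), quantile normalization (0.055) and the slide column (0.042). When 1 calf was left out RBPJ ran from -0.081 to 0.053, HES1 from -0.33 to 0.037, HES5 from -0.13 to 0.13, LFNG from -0.45 to 0.13 and ADAM10 from -0.027 to 0.10. The cause was not tested. NOTCH2 was not tested with the filter on all 7 arrays, which its probe did not pass.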
